A study of Saccharomyces cerevisiae with 12 samples.

Results

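The transcriptome of an evolved yeast mutant, E62A, was compared directly with that of an engineered strain, SO16. Both are derivatives of the laboratory strain CEN.PK113-7D of Saccharomyces cerevisiae, and both were grown on galactose. The comparison was chosen by array title, as the 2 arrays labelled E62A against the 2 arrays labelled SO16, so 4 of the 12 arrays of the series carry it. It covered all 5449 genes that have a probe set with 1 budding yeast gene symbol, each represented by its brightest probe set, out of 10928 probe sets on the array. E62A is 1 of the evolved mutants of the series, and the labels give it no deletion or plasmid. SO16 carries, as the study is known to report, deletions of GAL80, MIG1 and LAP3, the last also called GAL6. Another group of 2 arrays, REF, is the unmodified strain and is used here only to show its levels. E62A, SO16 and REF cultures had minimal galactose medium, a fermenter at pH 5.0 and sampling in the middle of exponential growth in common, and total RNA was hybridised. The labels give no age or generation number for E62A, do not say whether it is 1 clone, and do not tell whether replicate arrays stem from independent cultures. The adjusted p-values therefore reflect array-to-array variation alone, and that variation may be technical.

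Budding yeast switches on its galactose genes through the activator Gal4. Without galactose Gal4 is held inactive by the inhibitor Gal80, and with galactose the sensor Gal3 binds Gal80 and frees Gal4. The induced enzymes of the Leloir pathway (Gal1, Gal7 and Gal10) and the permease Gal2 bring galactose into glycolysis through glucose phosphates. When glucose is present the repressor Mig1 shuts these genes and those for other carbon sources. LAP3 encodes a cysteine peptidase that is also reported to act on galactose gene expression.

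Levels are log2 values from the robust multi-array average (RMA), a scale on which a step of 1 is a doubling, and every difference is E62A minus SO16 ± the standard error of the limma fit (n = 2 arrays per group). The SO16 arrays differed more from each other than the E62A arrays did: the SD of the log2 difference between replicates over all genes was 0.183 for SO16 and 0.0919 for E62A. Between an E62A and an SO16 array it was 0.326 to 0.345. Among the E62A and SO16 arrays, SO16 replicate 2 stood apart in its technical signals. Its hybridisation controls averaged 9.87, against 12.34 on SO16 replicate 1 and 11.56 and 11.27 on the E62A arrays. Its ribosomal RNA probe sets averaged 10.40, where E62A replicates 1 and 2 had 9.31 and 8.54. Replicate 2 of E62C, another modified group in the fit, was alike, with hybridisation controls at 9.89 and ribosomal RNA at 10.70. These are the 2 arrays with weak hybridisation controls. A gene counted as called when its adjusted p was under 0.05 by limma with Benjamini-Hochberg adjustment over all genes. With these 2 groups an exact permutation test cannot go below p = 0.333, so all calls rest on the spread pooled over genes and over the 5 modified groups of the series.

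The deleted genes came first, because they test whether the labels are right. GAL80 was at 11.20 and 11.16 on the E62A arrays and at 6.29 and 6.04 on the SO16 arrays. MIG1 was at 9.11 and 9.19 on the E62A arrays and at 5.84 and 5.62 on the SO16 arrays. LAP3 was at 11.02 and 11.13 on the E62A arrays and at 5.72 and 5.87 on the SO16 arrays. All 3 genes were bright in E62A and at or near background in SO16, as the genotype of SO16 requires. Background was taken as 6.0, the 95th percentile of the mean levels of 1746 fission yeast probe sets on the same array. LAP3 and MIG1 fell below that level on both SO16 arrays, so LAP3 was at least 33.7-fold and MIG1 at least 8.87-fold higher in E62A. GAL80 differed by 5.02 ± 0.09 (adjusted p = 4.47e-10), and no fold is given for it because its SO16 signal was close to background. In REF these genes had levels close to those of E62A for GAL80 (11.32 and 11.43) and MIG1 (9.20 and 9.29), and LAP3 was at 10.63 and 10.77. All levels are means over a culture. For genes that are not deleted, fewer cells with a transcript and less of it per cell therefore cannot be told apart.

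The galactose structural genes were high in both strains, and their arrays overlapped. GAL1, the galactokinase, was at 13.90 and 13.89 in E62A and at 13.99 and 13.80 in SO16. GAL2, the permease, was at 13.73 and 13.72 in E62A and at 13.80 and 13.60 in SO16. GAL7, the transferase, was at 13.73 and 13.71 in E62A and at 13.84 and 13.67 in SO16. For these genes and for the epimerase GAL10 the E62A arrays lay inside the range of the SO16 arrays, and limma called none of the 4, with 0 at an unadjusted p under 0.05 as well. The differences were 0.00 ± 0.08 for GAL1, 0.02 ± 0.09 for GAL2, -0.04 ± 0.08 for GAL7 and 0.06 ± 0.09 for GAL10. These levels are near the top of the values on the array, 14.4, where RMA values compress differences.

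Most of the genes that Gal4 controls at lower levels did differ. Of 5 such genes 4 were lower in E62A than in SO16 (80% called, against 18.5% over all genes), with a list median of -0.58. The remaining gene went the other way, by 0.21. It was not called, though its unadjusted p by limma was under 0.05. MLF3 was at 10.50 and 10.53 in E62A and at 11.36 and 11.39 in SO16, a difference of -0.86 ± 0.06 (adjusted p = 1.95e-05). PCL10, a cyclin that acts on glycogen synthase, was at 9.40 and 9.35 in E62A and at 10.04 and 9.90 in SO16. MTH1, a corepressor of glucose transporter genes, was at 9.62 and 9.51 in E62A and at 10.15 and 10.15 in SO16. In each of these genes both E62A arrays lay below both SO16 arrays. REF was at 10.50 and 10.58 for MLF3, 9.13 and 9.25 for PCL10 and 9.65 and 9.58 for MTH1. In all of them REF was closer to E62A than to SO16. GCY1, a glycerol dehydrogenase, had means of 12.97 in E62A, 13.28 in SO16 and 12.99 in REF (-0.30 ± 0.06). The sensor GAL3 had means of 10.63 in E62A, 11.02 in SO16 and 10.52 in REF (-0.39 ± 0.08). Both calls were lost when an E62A array was left out, with adjusted p up to 0.0782 for GCY1 and 0.0696 for GAL3. The phosphoglucomutase genes PGM1 (-0.16 ± 0.08, adjusted p = 0.205) and PGM2 (-0.29 ± 0.12, adjusted p = 0.135), which connect the Leloir pathway to glycolysis, were not called. GAL4 itself had no probe set in the tables used here.

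**Figure D1:**
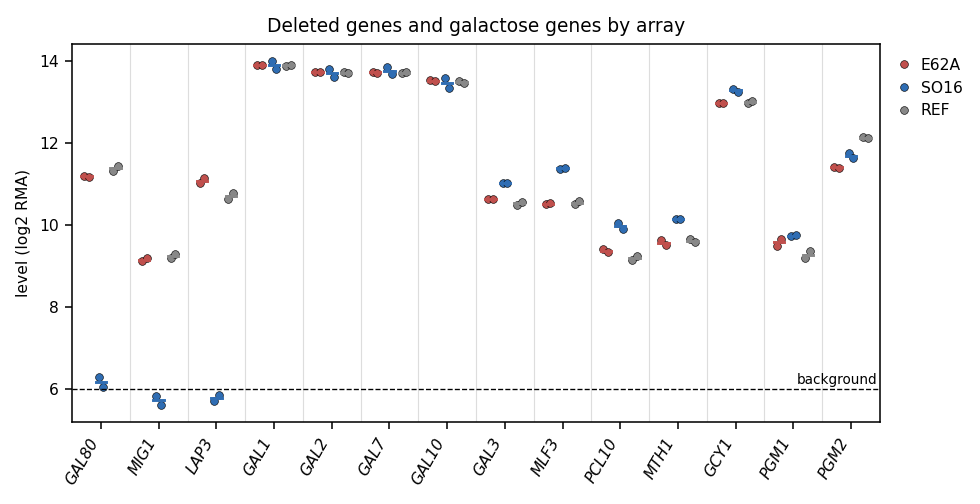
Level of the 3 genes deleted in SO16, the Leloir and permease genes, other Gal4 targets and the phosphoglucomutases on each array. The y axis is the log2 RMA level, points are arrays (2 per group), short bars are group means and the dashed line is background at 6.0. GAL80, MIG1 and LAP3 were at or near background in SO16 alone, GAL1, GAL2, GAL7 and GAL10 overlapped between E62A and SO16, and MLF3, PCL10 and MTH1 lay lower in E62A than in SO16.

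Over all genes, 1010 of 5449 (18.5%) were called. In E62A 527 genes (9.67%) were higher and 483 (8.86%) were lower. In all 1010 the E62A arrays did not overlap the SO16 arrays, but this also held for 3174 of all genes (58.2%), so it adds little to a call. Most differences were small: the median absolute difference of called genes was 0.41, and 83 genes differed by 1 or more, 33 of them higher and 50 lower in E62A. The median difference over all genes was 0.01. Of the 1010 calls 362 were kept when each of the 4 arrays was left out in turn, and of the 353 called genes with a difference of 0.5 or more 303 were kept. The total was 410 without E62A replicate 1 and 447 without E62A replicate 2. Without SO16 replicate 2, the array with weak controls, 1052 genes were called, 709 higher and 343 lower in E62A (67.4% higher), and without SO16 replicate 1 the total was 1170, 411 higher and 759 lower (35.1% higher). The split between rises and falls thus differed with the SO16 array used.

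**Figure D2:**
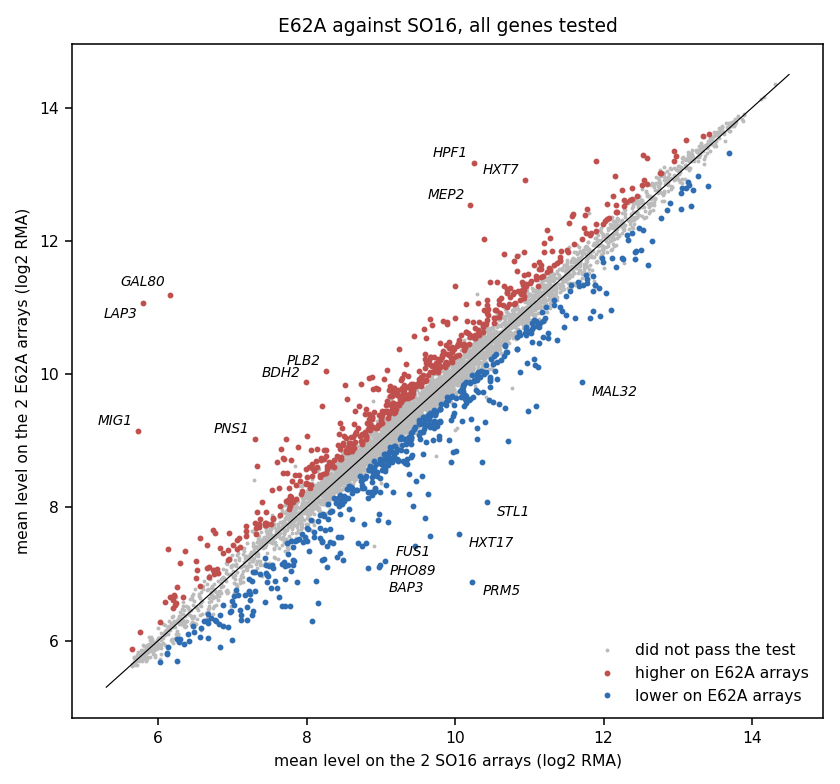
Mean level of each of the 5449 genes on the 2 SO16 arrays (x axis) and on the 2 E62A arrays (y axis), both in log2 RMA. Red points are the 527 genes called higher and blue points the 483 called lower in E62A, grey points did not pass the test and the line marks equal levels. LAP3, GAL80 and MIG1 stand farthest above the line and PRM5 farthest below it.

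After the deleted genes, the largest rise was in HPF1, a mannoprotein of the cell wall. It was at 13.18 and 13.18 in E62A and at 10.09 and 10.41 in SO16, with 11.92 and 11.88 in REF, so REF lay between them. The difference was 2.93 ± 0.21, or 7.60-fold (adjusted p = 1.95e-05). MEP2, an ammonium permease, was next at 12.47 and 12.61 in E62A and 9.95 and 10.46 in SO16, 5.05-fold higher. HXT7, a high-affinity hexose transporter, was at 12.94 and 12.90 in E62A and at 10.56 and 11.32 in SO16. The SO16 arrays differed by 0.76 between themselves in HXT7, and its probe set is shared between near-identical transcripts. BDH2, a putative dehydrogenase of the butanediol family, rose by 1.89 ± 0.11, and PLB2, a phospholipase B, by 1.78 ± 0.09. PNS1, whose product resembles choline transporters, rose by 1.72 ± 0.17 and ATO2, a putative exporter of ammonia and carrier of acetate, by 1.64 ± 0.14. FMP23 rose by 1.30 ± 0.20.

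The largest fall was in PRM5, a target of the cell wall integrity pathway. It was at 6.93 and 6.84 in E62A and at 10.16 and 10.31 in SO16, with 8.47 and 8.56 in REF, and the 3 groups did not overlap. The difference was -3.35 ± 0.10, so PRM5 was 10.2-fold lower in E62A (adjusted p = 4.65e-08). STL1, the glycerol proton symporter, was at 8.08 and 8.08 in E62A and at 10.28 and 10.59 in SO16. It was 5.12-fold lower in E62A, and REF, at 10.14 and 10.09, was near SO16. The uncharacterised open reading frame YMR206W fell by 2.05, NCA3, a wall protein of the SUN family, by 1.77, SRD1, an RNA-processing protein, by 1.75 and YCL021W-A by 1.74 on the log2 scale. RGI2, which is needed for respiratory growth, was at 6.49 and 6.64 in E62A, at 8.18 and 8.13 in SO16 and at 6.80 and 6.88 in REF. For RGI2 the SO16 arrays stood above the other groups. EGO4 was at 8.95 and 9.04 in E62A, 10.58 and 10.85 in SO16 and 12.04 and 11.68 in REF. Every gene named in these paragraphs on the largest differences kept its call when any 1 of the 4 arrays was left out.

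Genes of cell wall integrity were more often lower than higher in E62A. Of 30 measured genes of the cell wall integrity list, 14 were lower and 1 was higher in E62A (50% called), with a median of -0.19. By sign alone, 23 were negative and 7 positive. Outside the list, the wall proteins HPF1 and TIR3 were higher in E62A and NCA3 was lower. SLT2, the MAP kinase at the end of the pathway, was at 9.48 and 9.50 in E62A and at 10.67 and 10.68 in SO16, 2.28-fold lower in E62A (adjusted p = 5.06e-06). GSC2, which encodes the inducible subunit of glucan synthase, was at 10.69 and 11.04 in E62A and at 11.82 and 12.10 in SO16. PIR3, a covalently bound wall protein, was at 7.82 and 7.74 in E62A and at 9.003 and 9.19 in SO16, a difference of -1.32 ± 0.08. SPI1, a wall protein induced by weak acids, was at 7.50 and 7.60 in E62A, 8.31 and 8.53 in SO16 and 8.91 and 9.20 in REF. All of these had both E62A arrays below both SO16 arrays. The gene of the list that was called higher was WSC4, of the family of wall sensors. It was at 9.40 and 9.50 in E62A and 8.62 and 8.68 in SO16. In REF PRM5, SLT2 (9.89 and 9.98) and GSC2 (11.24 and 11.29) lay between E62A and SO16. Without E62A replicate 1 or 2 the list had 11 or 10 genes lower.

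Genes of the pheromone response were lower in E62A as well. All 19 genes of the pheromone response list had a negative difference, 13 of them (68.4%) passed the test, and the median was -0.42. FUS1, a membrane protein of cell fusion, was at 7.20 and 7.18 in E62A, 8.996 and 9.13 in SO16 and 9.19 and 9.25 in REF. It was 3.66-fold lower in E62A (adjusted p = 6.92e-07), with SO16 near REF. FAR1, which arrests the cell cycle on pheromone, was at 10.83 and 10.84 in E62A, 11.80 and 11.82 in SO16 and 11.18 and 11.34 in REF. SST2, which switches the pheromone signal off, fell by 0.89 and FUS3, the MAP kinase of the pathway, by 0.77 on the log2 scale. Agglutinin anchor AGA1 and the fusion gene PRM1 fell by 0.75 and 0.81. None was higher, also at an unadjusted p under 0.05, and without E62A replicate 1 or 2 the count of lower genes was 9 or 10.

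In a list of 10 haploid-specific genes, which shares FAR1, FUS3, GPA1 and STE12 with the pheromone list, 4 were lower and 2 higher in E62A. The higher genes were RME1, a repressor of meiosis (0.28 ± 0.07), and NEJ1, a factor of DNA end joining (0.31 ± 0.08), and neither was called without E62A replicate 1 (adjusted p of 0.144 and 0.242), E62A replicate 2 or SO16 replicate 1. CEN.PK113-7D is a haploid strain of mating type a. Of 7 a-specific genes 4 were lower in E62A. BAR1, the protease that degrades alpha factor, was at 9.60 and 9.51 in E62A, 10.53 and 10.66 in SO16 and 10.61 and 10.61 in REF. MFA1, a precursor of a-factor, was at 10.10 and 10.18 in E62A, 11.24 and 10.90 in SO16 and 11.85 and 11.74 in REF. Of 4 alpha-specific genes, whose signals were low, 2 were lower and 2 were not called. STE3, the a-factor receptor, was at 6.47 and 6.58 in E62A and 7.46 and 7.97 in SO16, and MF(ALPHA)1, an alpha-factor precursor, was at 6.68 and 6.90 in E62A and 7.43 and 7.77 in SO16. The calls of BAR1, MFA1, STE3 and MF(ALPHA)1 held when any 1 of the 4 arrays was left out. Those of MFA2 and AGA2, the remaining a-specific calls, did not: without E62A replicate 1 their adjusted p was 0.0529 and 0.0986.

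**Figure D3:**
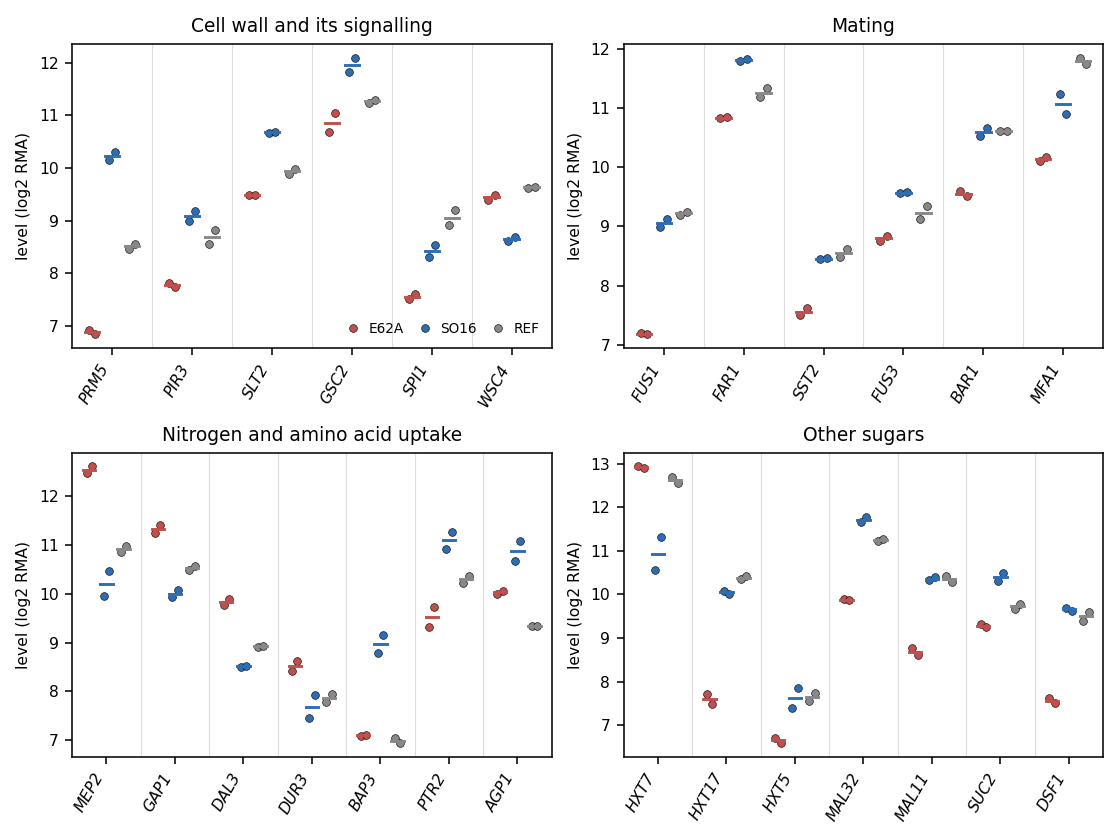
Log2 RMA level (y axis) of genes of the cell wall, of mating, of nitrogen and amino acid uptake and of other sugars on each array. Points are arrays, short bars the means of the 2 arrays. PRM5, SLT2, FUS1, BAR1, BAP3 and MAL32 lay lower in E62A than in SO16, and WSC4, MEP2, GAP1, DAL3 and HXT7 lay higher.

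Genes for maltose and sugar alcohols were mostly lower in E62A. In a list of 10 genes for maltose and polyol use 8 were lower and 1 was higher (90% called), with a median of -0.83. MAL32, the maltase, was at 9.89 and 9.87 in E62A, 11.65 and 11.77 in SO16 and 11.21 and 11.27 in REF, 3.56-fold lower in E62A than in SO16. MAL11, a maltose permease, was at 8.76 and 8.61 in E62A, 10.33 and 10.40 in SO16 and 10.43 and 10.28 in REF. MAL33, the activator of its locus, fell by 1.10 and the permease MAL31 by 0.57 on the log2 scale. DSF1, related to mannitol dehydrogenases, was at 7.62 and 7.52 in E62A and 9.68 and 9.63 in SO16, and SOR2, a sorbitol dehydrogenase, fell by 1.09. The probe sets of MAL32, DSF1 and SOR2 are shared between near-identical transcripts. Without the shared probe sets the median of the list was -0.54.

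SUC2, the invertase that is the classic target of Mig1, was at 9.32 and 9.26 in E62A, 10.31 and 10.50 in SO16 and 9.68 and 9.78 in REF. SUC2 was 2.17-fold lower in E62A (adjusted p = 0.000245). Of 22 genes repressed by Mig1 or acting in glucose repression, 9 were lower and 4 higher in E62A, and 1 of the 4 is MIG1 itself. CAT8, an activator of gluconeogenic genes, was at 8.14 and 8.14 in E62A and 8.75 and 8.90 in SO16. HXK2, the hexokinase with a role in repression, was at 11.85 and 11.86 in E62A and 12.40 and 12.48 in SO16. NRG2, a repressor of glucose-repressed genes, was higher, at 10.11 and 10.002 in E62A, 9.14 and 9.03 in SO16 and 9.63 and 9.49 in REF. The median of the list was -0.12, and without an E62A array 4 genes were lower and 2 or 3 higher.

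Hexose transporters other than HXT7 were lower or not called, apart from the sensor RGT2, named here after its value was seen (0.26 ± 0.08, adjusted p = 0.0481). HXT17 was at 7.73 and 7.48 in E62A, 10.08 and 10.01 in SO16 and 10.35 and 10.41 in REF, 5.44-fold lower in E62A than in SO16. HXT17 also lies on a shared probe set. HXT5, a transporter of slow-growing cells, was at 6.72 and 6.60 in E62A and 7.40 and 7.86 in SO16. Of the 15 measured members 6 were lower and 2 higher, and the count of lower genes was 2 without E62A replicate 1 and 3 without E62A replicate 2 or SO16 replicate 2. In each of the 4 fits that left out 1 array the count of higher genes was 1, and RGT2 lost its call. HXT9, HXT10 and HXT14 were among those that lost their calls without E62A replicate 1.

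Targets of Cat8 and Adr1, the activators of growth on ethanol and acetate, split in direction. Of 20 genes 5 were higher and 4 lower, with a median of -0.06. ALD4, the mitochondrial aldehyde dehydrogenase, was at 13.16 and 13.24 in E62A and 11.83 and 11.96 in SO16, 2.47-fold higher in E62A. MLS1, malate synthase, was at 10.34 and 10.41 in E62A, 9.17 and 9.32 in SO16 and 8.98 and 9.15 in REF. MDH2, cytosolic malate dehydrogenase, rose by 0.82 ± 0.11 and IDP2, cytosolic isocitrate dehydrogenase, by 0.66 ± 0.09. REG2, a subunit of the Glc7 phosphatase, was at 7.66 and 7.85 in E62A and 8.79 and 8.77 in SO16, a fall by 1.02. PCK1, the gluconeogenic carboxykinase, differed by -0.68 ± 0.17. It lost its call without E62A replicate 1, without E62A replicate 2 and without SO16 replicate 1.

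Peroxisomal beta-oxidation is in yeast the only route of fatty acid breakdown. Transcripts of its genes were higher in E62A than in SO16. The median level of the list was 8.70 in E62A, 8.41 in SO16 and 8.72 in REF, so E62A was near REF. All 16 genes of the list had a positive difference, 7 (43.8%) passed the test and none was called lower, with a median of 0.28. TES1, a peroxisomal thioesterase, was at 10.32 and 10.30 in E62A and 9.48 and 9.71 in SO16. FOX2, the multifunctional enzyme, was at 9.96 and 10.0002 in E62A and 9.19 and 9.53 in SO16. POT1, the thiolase, CAT2, a carnitine acetyltransferase, ECI1, an isomerase, and SPS19, a reductase, rose by 0.57, 0.57, 0.52 and 0.51. No gene of 14 for fatty acid synthesis and desaturation was called by limma, while 4 had an unadjusted p under 0.05, all of them higher in E62A.

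The sterol branch of ergosterol synthesis was higher in E62A. Of its 15 genes 11 (73.3%) were higher and 0 lower, with a median of 0.62. ERG24, a reductase, was at 11.76 and 11.78 in E62A, 10.64 and 11.03 in SO16, and its mean in REF was 11.01. ERG3, a desaturase, was at 12.94 and 13.02 in E62A, 12.25 and 12.06 in SO16 and 11.94 and 11.89 in REF. ERG25, a methyl oxidase, was at 13.27 and 13.30 in E62A and 12.53 and 12.54 in SO16. ERG5, a desaturase late in the pathway, was at 12.46 and 12.48 in E62A, 11.69 and 11.87 in SO16 and 11.95 and 12.09 in REF, a difference of 0.69 ± 0.10 (adjusted p = 0.00108). In each of these genes the E62A arrays were above the SO16 and the REF arrays. ERG4 and the electron donor NCP1 both rose by 0.77. When any 1 of the 4 arrays was left out, 10 to 12 genes of the list were higher.

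Upstream, in the mevalonate branch, 3 of 9 genes (ERG13, HMG2 and MVD1) were higher, and all 3 lost their calls without E62A replicate 1 (adjusted p of 0.160, 0.0697 and 0.169). Among genes of sterol regulation and esterification, ATF2, which acetylates alcohols and sterols, was at 9.49 and 9.54 in E62A, 8.13 and 8.28 in SO16 and 7.87 and 7.88 in REF. ARE2, a sterol acyltransferase, rose by 0.94 ± 0.10. PRY2, a secreted sterol-binding protein, fell by 0.69 and its relative PRY3 rose by 0.50.

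Genes that yeast represses when good nitrogen sources are at hand were higher in E62A. Of 30 measured genes of nitrogen catabolite repression 13 (43.3%) were higher and 0 lower, with a median of 0.19, or 0.123 when the arrays were centred on ribosomal protein genes. Besides MEP2, GAP1, the general amino acid permease, was at 11.25 and 11.41 in E62A, 9.93 and 10.07 in SO16 and 10.49 and 10.57 in REF, 2.51-fold higher in E62A than in SO16. DAL3, a ureidoglycolate lyase of allantoin use, was at 9.77 and 9.90 in E62A, 8.51 and 8.52 in SO16 and 8.91 and 8.93 in REF. DUR3, a urea and polyamine transporter, was at 8.42 and 8.62 in E62A and 7.45 and 7.92 in SO16. For MEP2, GAP1 and DAL3 the REF arrays lay between E62A and SO16. Without E62A replicate 1 or 2 the count was 8 or 6, and MEP1 and DAL5 were among the calls lost without E62A replicate 2. At an unadjusted p under 0.05 the list had 15 higher and 1 lower.

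In a list of 18 amino acid permeases, put together around the SPS sensor, 5 were higher and 5 lower (55.6% called). Induction by the sensor was not tested for its members. GAP1, 1 of the higher genes, is also counted in the nitrogen list above. BAP3, a permease of branched-chain amino acids, was at 7.09 and 7.11 in E62A, 8.78 and 9.16 in SO16 and 7.04 and 6.94 in REF. Both SO16 arrays stood above the E62A and REF arrays, with a difference of -1.87 ± 0.20 between E62A and SO16 (adjusted p = 0.000174). PTR2, the dipeptide transporter, was at 9.32 and 9.74 in E62A, 10.92 and 11.27 in SO16 and 10.23 and 10.36 in REF. AGP1, a broad permease, was at 9.99 and 10.06 in E62A, 10.66 and 11.08 in SO16 and 9.35 and 9.35 in REF. AGP2, a carnitine and polyamine uptake protein, rose by 1.11 ± 0.10. Without E62A replicate 1 there were 3 higher and 3 lower, and without E62A replicate 2 there were 2 higher and 3 lower.

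Amino acid synthesis genes under Gcn4, the activator of the response to amino acid starvation, showed small rises. Of 47 measured genes 14 (29.8%) were higher and 0 lower, with a median of 0.11 and a highest difference of 0.55, in BAT2, the cytosolic branched-chain aminotransferase. ARG4, argininosuccinate lyase, was at 12.50 and 12.61 in E62A and 12.01 and 12.09 in SO16. Without E62A replicate 1 the count was 3 and without E62A replicate 2 it was 5. At an unadjusted p under 0.05 the list had 19 higher and 0 lower. The median was 0.062 without SO16 replicate 1, 0.164 without SO16 replicate 2 and 0.043 when the arrays were centred on ribosomal protein genes. In the sulfate and methionine list 4 of 26 were higher, near the share over all genes, and 2 with either E62A array left out. They included SAM3, the S-adenosylmethionine permease (0.57 ± 0.10), and STR3, a cystathionine beta-lyase (0.55 ± 0.10).

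**Figure D4:**
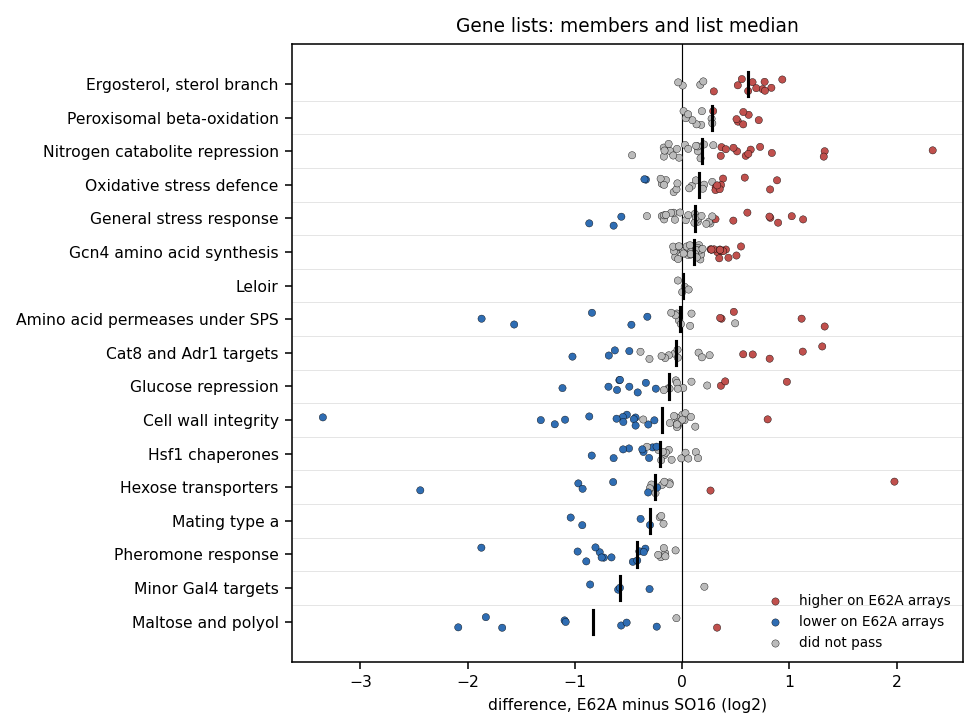
Log2 difference E62A minus SO16 (x axis) of the members of 17 gene lists, 1 list per line. Each point is a gene, red where called higher, blue where called lower and grey where it did not pass; black bars are list medians. MIG1, at 3.42, is left off the glucose repression line but counts in its median. The sterol branch has the highest median (0.62) and maltose and polyol genes the lowest (-0.83).

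Stress genes were split. In the general stress list 8 of 32 were higher and 3 lower, with a median of 0.12. The median was 0.0665 without SO16 replicate 1, 0.193 without SO16 replicate 2 and 0.0589 when the arrays were centred on ribosomal protein genes. MSC1 was at 10.61 and 10.53 in E62A, 9.31 and 9.57 in SO16 and 11.46 and 11.45 in REF, and RTN2, a reticulon, was at 8.96 and 8.85 in E62A, 7.91 and 7.86 in SO16 and 9.61 and 9.51 in REF. TFS1, an inhibitor of carboxypeptidase Y, was at 11.05 and 11.05 in E62A, 10.20 and 10.11 in SO16 and 11.54 and 11.65 in REF. In these 3 genes E62A lay between SO16 and REF. TSL1, of the trehalose synthase complex, and GLG2, which primes glycogen, rose by 0.76 and 0.89.

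Chaperones under the heat shock factor Hsf1 went the other way, with 9 of 22 lower (40.9%), 0 higher and a median of -0.21. BTN2, which gathers misfolded protein, was at 9.64 and 9.58 in E62A, 10.39 and 10.52 in SO16 and 9.70 and 9.63 in REF. AHA1, an activator of Hsp90, was at 11.36 and 11.32 in E62A and 11.87 and 11.91 in SO16, and the Hsp70 gene SSA4 fell by 0.64. At an unadjusted p under 0.05 the list had 14 lower and 0 higher. The count of called genes was 4 with either E62A array left out and 5 without SO16 replicate 2.

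In the list of oxidative stress defence 9 of 24 were higher and 2 lower, with a median of 0.16. GTT1, a glutathione transferase, was at 10.78 and 10.78 in E62A and 9.91 and 9.88 in SO16. AHP1, a peroxiredoxin, was at 12.44 and 12.38 in E62A, 11.60 and 11.58 in SO16 and 12.48 and 12.42 in REF. HYR1, a thiol peroxidase, rose by 0.58 ± 0.06. Without E62A replicate 1 or 2, 4 or 3 genes were higher and 0 lower.

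Central carbon metabolism was mixed. Of 19 glycolysis genes 3 were lower and 1 higher (21.1% called), near the share of 18.5% over all genes. Of 16 genes for ethanol and acetate 2 were lower and 4 higher (37.5%). Of 17 genes for glycerol and osmotic response 4 were lower and 2 higher (35.3%). With either E62A array left out these lists had 2, 2 or 3, and 2 calls. ENO1, an enolase, was at 12.50 and 12.48 in E62A, 12.99 and 13.09 in SO16 and 13.20 and 13.26 in REF. ZWF1, the first enzyme of the pentose phosphate pathway, was at 11.80 and 11.87 in E62A and 12.34 and 12.50 in SO16, and NQM1 and TKL2 of the same pathway fell by 0.90 and 0.84. Of 13 pentose phosphate genes 5 were lower and 1, SOL4, was higher (46.2% called), and with either E62A array left out 3 were lower and 1 higher. The TCA cycle had 1 called gene of 23 and the respiratory chain 5 of 37, both below the share over all genes, and without E62A replicate 1 they had 0 and 1. YIG1, which interacts with glycerol phosphatase, was at 7.79 and 7.84 in E62A, 8.96 and 8.96 in SO16 and 7.94 and 8.10 in REF. In the Ras and protein kinase A list 4 of 20 were higher and 2 lower, and without E62A replicate 1 or 2 there were 3 or 2 calls in all. BCY1, the inhibitory subunit of the kinase, rose by 0.55 ± 0.07, and PDE2, a cyclic AMP phosphodiesterase, fell by 0.39. RAS2 differed by 0.28 ± 0.06, a call that was lost with either E62A array left out (adjusted p up to 0.130).

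The phosphate transporters PHO89 and PHO84 were lower in E62A. PHO89, a sodium phosphate cotransporter, was at 7.14 and 7.13 in E62A, 8.76 and 9.21 in SO16 and 8.10 and 8.28 in REF. PHO84, the high-affinity phosphate transporter, was at 6.47 and 6.57 in E62A, 7.50 and 8.06 in SO16 and 6.51 and 6.30 in REF. PHM7 rose by 1.22 ± 0.15, and 3 of 20 phosphate genes were higher and 3 lower. THI13, of thiamine synthesis and on a shared probe set, was at 7.40 and 7.45 in E62A and 8.73 and 8.77 in SO16, and 4 of 11 thiamine genes (36.4%) were lower, or 1 with either E62A array left out. In the zinc and copper list 2 of 10 genes were higher and 2 lower, with a median of 0.38. CTR1, the copper transporter, differed by 1.15 ± 0.25 and the zinc transporter ZRT2 by 0.50 ± 0.14, and without E62A replicate 1 no gene of the list was called (adjusted p of 0.0984 for CTR1 and 0.155 for ZRT2). In the iron list 25 of 28 genes were negative and the median was -0.40, but only HMX1 and CTH1 passed, and both lost their calls with either E62A array left out. The iron genes varied more between replicates than genes at large, with a median absolute replicate difference of 0.183 in E62A and 0.200 in SO16, against 0.0507 and 0.139 over all genes. In 2 of the other groups of the fit this was 0.648 and 0.918.

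Few genes of the growth machinery were called. None of 32 cytosolic ribosomal protein genes was called by limma, 1 had an unadjusted p under 0.05, and their median difference was 0.06, or 0.0969 without SO16 replicate 1 and 0.0256 without SO16 replicate 2. Of 80 ribosome biogenesis genes 3 were higher, and of 51 mitochondrial ribosomal protein genes 1 was lower. When the arrays were centred on the ribosomal protein genes, 289 genes were higher and 573 lower in E62A, so that 33.5% of calls were higher, against 52.2% as deposited. The balance of rises and falls over the transcriptome therefore depends on the scaling.

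**Figure D5:**
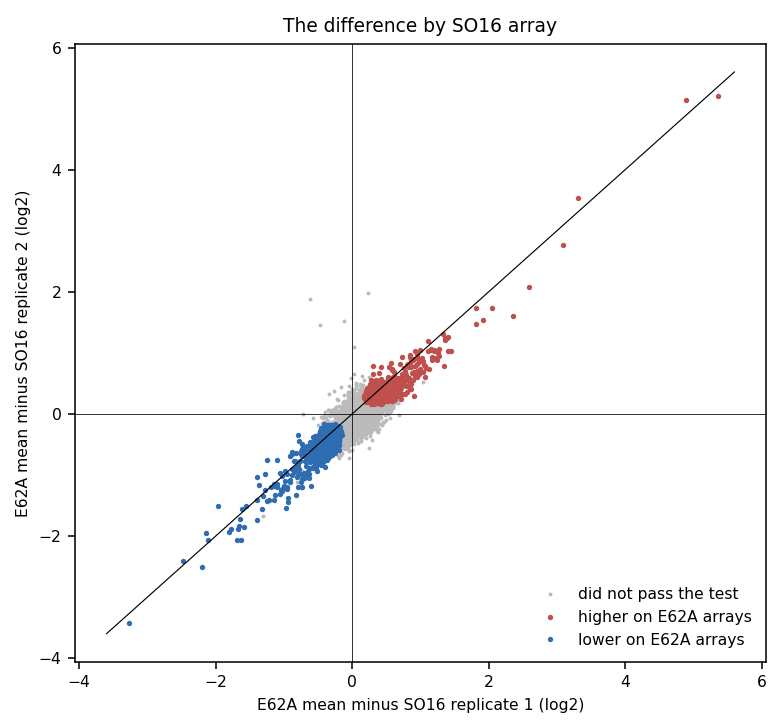
Mean level in E62A minus the level on SO16 replicate 1 (x axis) and minus that on SO16 replicate 2 (y axis) for each of 5449 genes, in log2. Red and blue points are genes called higher and lower in E62A, grey points did not pass and the diagonal marks equal differences. All 1010 called genes lie on the same side of 0 for both SO16 arrays, as do 3773 of all 5449 genes.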

How the data were processed

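The deposited table holds log2 values of 10928 probe sets on 12 arrays. The submitters' processing notes name RMA and affy. Versions and a build were not given in the sources used here. Because RMA equalises array distributions, a shift of all transcripts would be removed. Arrays have no count depth, so their number limits the precision, and 109 genes had a mean below background.

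Probe sets were named through a platform table: 7244 had 1 symbol, 1 had several and 3683 had none. Of 5498 budding yeast probe sets the brightest per gene was kept (5449 genes, 114 on shared probe sets). One mean per group was fitted to the 10 arrays of the 5 modified groups, without REF, with limma 3.58.1 (lmFit, then contrasts.fit, then eBayes; R 4.3.3). Residual degrees of freedom were 5 and prior ones 4.54. The procedure was run on simulated data with independent noise on each array. That simulation does not cover variation shared between groups. The gene lists are described by counts and medians, with no set test.

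Genes are named where they are among the 15 largest rises or falls, among up to 6 called members of a list (or the 2 largest where none was called), or among GAL1, GAL2, GAL3, GAL4, GAL7, GAL10, GAL80, MIG1, LAP3, PGM1, PGM2, RAS2 and ERG5. The members, lists and naming rule were chosen with earlier results of these data known. The alternatives were other arrays in the fit, scalings, filters on dim or shared probe sets, variance models and thresholds, a replicate block and leaving out each array.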

Additional observations from a re-analysis of the deposited data

Results flagged for a closer look

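For probe sets without a gene symbol, limma was run with adjustment over all 10928 probe sets. Of 3470 that carry no gene symbol in the tables used here and are no controls, 69 passed, 35 higher and 34 lower in E62A. Among these, 2 differed by more than any named gene other than PRM5 and the 3 genes deleted in SO16. The one that rose was at 12.90 and 12.89 in E62A, 9.48 and 9.62 in SO16 and 11.36 and 11.42 in REF, a difference of 3.35 ± 0.15 (adjusted p = 1.51e-05). The one that fell was at 7.39 and 7.32 in E62A, 10.71 and 10.68 in SO16 and 9.16 and 9.15 in REF, a difference of -3.35 ± 0.10 (adjusted p = 1.14e-06). Both are singled out as strong signals on probe sets that were not among those compared, with REF between the strains. They were chosen after their values were seen. The one that rose is a probe set shared between near-identical transcripts. Whether its signal comes from a gene already compared was not tested.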

How the results depend on the processing

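The count of 1010 called genes became 627 with only the 4 arrays in the fit, 1678 without both arrays with weak hybridisation controls, 495 at an adjusted p under 0.01 and 208 in a test against a log2 difference of 0.3. Leaving out 1 array gave 410 to 1170, lowest without E62A replicate 1; the lone array is then assumed to vary like the other groups. The replicate block gave 1091. Replicate differences of E62A and SO16 correlated at 0.178, and those of the 15 pairs of groups at -0.35 to 0.54. REF, E62B and the group labelled PGM2 correlated with each other at 0.47 to 0.53, and E62C and SO16 at 0.54. The replicate numbers thus did not pair all groups alike, but some groups shared variation between replicates. The main fit treats the arrays as independent, and the source of the shared variation was not tested. Of 202 called genes that the text could name, 120 kept their call without any 1 array and 87 under every setting. Without both weak arrays list medians became -0.049 (glucose repression), 0.23 (oxidative defence), 0.34 (peroxisomal), 0.11 (SPS permeases) and -0.74 (maltose). Centred on ribosomal proteins they were -0.19 (glucose repression), -0.12 (Cat8 and Adr1), -0.27 (Hsf1), 0.10 (oxidative), 0.21 (peroxisomal), -0.085 (SPS) and -0.89 (maltose), and maltose was -0.54 without shared probe sets. Leaving out 1 array, they spanned -0.20 to -0.049 (glucose repression), -0.10 to -0.038 (Cat8 and Adr1), -0.26 to -0.20 (Hsf1), 0.12 to 0.23 (oxidative), 0.21 to 0.34 (peroxisomal), -0.074 to 0.11 (SPS) and -0.91 to -0.74 (maltose). Daughter cell separation reversed, at 0.0775 without both weak arrays and -0.0774 to 0.0775 without 1 array, against -0.03. Except where fewer arrays or a stricter threshold made the change, the cause was not tested.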

Other observations

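Genes next to the loci deleted in SO16 were examined after the values had been seen, in the gene order of assembly R64. Next to GAL80, SUR7, an eisosome protein, was at 11.70 and 11.69 in E62A and 10.85 and 10.74 in SO16 (0.91 ± 0.12, adjusted p = 0.000867), and AIM32 was at 9.25 and 9.19 in E62A and 9.84 and 9.68 in SO16 (-0.54 ± 0.09, adjusted p = 0.00292). Next to LAP3, NAR1, of iron-sulfur protein assembly, fell by 0.38 and ZWF1, the gene beyond it, by 0.59 on the log2 scale, and KEX2, a protease, differed by 0.20 ± 0.08 (adjusted p = 0.121). Next to MIG1, PNC1 (0.23 ± 0.12) and HOP2 (0.17 ± 0.10) were not called. The measured gene beyond HOP2, AGA2, was called lower in E62A (-0.30 ± 0.08), a call that did not hold with each array left out. PHO89 lies beside the maltose genes MAL33, MAL31 and MAL32, and all 4 were lower in E62A, with differences of -1.85 for PHO89, -1.10 for MAL33, -0.57 for MAL31 and -1.83 for MAL32. Between MAL31 and MAL32, YBR298C-A was near background and not called (-0.01 ± 0.08). Beyond MAL32, PAU24 was not called either (-0.19 ± 0.07). The probe set of MAL32 is shared between near-identical transcripts, so its signal need not come from this locus alone. On the other side of PHO89, PCA1 fell by 0.60 and SUL1 differed by 0.34 ± 0.13 (adjusted p = 0.0946).

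Transporters of drugs and lipids differed by gene. PDR12, an exporter of weak organic acids, was at 12.10 and 12.22 in E62A and 11.08 and 11.41 in SO16, and the polyamine exporters TPO1 and TPO4 rose by 0.54 and 0.53. PDR5, the broad drug exporter, was at 9.53 and 9.64 in E62A and 10.40 and 10.62 in SO16, and QDR1 fell by 0.63. TIR3, a wall mannoprotein of oxygen-poor growth, was at 9.12 and 9.01 in E62A, 7.82 and 8.19 in SO16 and 8.67 and 8.80 in REF.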
